A study of Mus musculus with 8 samples.

Results

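Ribosomal protein mRNAs were examined in primary mouse peritoneal mesothelial cells (MCs) as 85 genes of the cytosolic ribosome, out of 13687 genes in the table. They were taken by symbol: names that begin with Rpl or Rps and a digit, plus Rpsa, Rplp0, Rplp1 and Rplp2, without the entries marked as pseudogenes by "-ps" and without the S6 kinases. Of these, 51 code for proteins of the large subunit or relatives of them (Rpl and Rplp) and 34 belong to the small subunit (Rps and Rpsa). The standard set of ribosomal proteins accounts for 76 of them. The other 9 are Rpl22l1, Rpl36al, Rpl37rt, Rpl39l, Rpl7l1, Rps27l, Rps27rt and Rps4l, which are paralogs or retrocopies of ribosomal protein genes, and Rps19bp1, which codes for a binding partner of Rps19 and matched by its name only. Rps27 has no row in the table, and Fau and Gnb2l1, which code for ribosomal proteins under other names, fall outside the symbol rule.

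MCs line the peritoneal cavity, and the study asked how they respond to mechanical stretch when caveolin-1, the scaffold protein of caveolae, is missing. Cells were isolated from littermate WT mice and from Cav-1- mice (written CAV1-/- here, the constitutive deletion strain B6.Cg-CAV1tm1mls/J, in which every cell of the animal lacks the gene). Confluent cultures were then stretched or left static for 24 h. There were 4 animals, 2 of each genotype, and every animal gave 1 static and 1 stretched culture, so that each of the 4 groups holds 2 cultures and 8 poly-A RNA libraries were sequenced. Mice of both sexes were used across the ex vivo experiments of the study, and the age and sex of each animal behind these libraries were not given in the sources used here.

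The libraries held 9777738 to 21203938 reads, and the stretched culture was the deeper one in all 4 animals. At this depth 3 reads, taken as the detection floor, correspond to 0.146 to 0.308 TMM-normalized CPM (reads scaled to a common library size), a limit that covers counting error only. Cav1 itself was at 764, 275, 570 and 247 CPM in the WT cultures and at 12.8 to 34.5 CPM in the CAV1-/- cultures. The 11 mesothelial markers measured of 12 listed (Msln, Wt1, Upk3b, keratins and others) summed to 2959 to 3898 CPM in WT and to 854 to 1116 CPM in CAV1-/- cultures, and 2 of the 11 passed the limma test in the genotype comparison under static conditions. The 14 leukocyte markers measured of 15 summed to 453 and 473 CPM in the cultures of the first WT animal and to 80.2 and 84.6 CPM in those of the second. They summed to 4855 and 4864 CPM in the first CAV1-/- animal and to 310 and 343 CPM in the second. The cultures of the first CAV1-/- animal thus stand apart, and the first animal was higher in both genotypes. The 7 fibroblast markers summed to 10999 to 12167 CPM in the first animal of each genotype and to 18150 to 26348 CPM in the second. They therefore split by animal number in both genotypes. The 4 endothelial markers measured of 6 summed to 12.1 to 68.1 CPM.

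Nearly all proteins of the ribosome are present in it as a single copy, and the cell makes them in step from genes scattered over the chromosomes. The messages of ribosomal proteins usually begin with a C followed by a run of pyrimidines (C and T), the 5′ terminal oligopyrimidine (TOP) tract, through which the kinase mTORC1 and the RNA binding protein LARP1 control how strongly they are translated and how stable they are. The sequence around the start site is shown for 7 members because this tract is the feature by which the group is known. The windows run from 30 bases before to 30 bases from the RefSeq start (GRCm38.p6), on the gene's own strand, with the pyrimidine run in capitals.
Rpl7a, chr2:26910777-26910836, plus strand: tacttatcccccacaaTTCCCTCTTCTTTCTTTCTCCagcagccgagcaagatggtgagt
Rpl34, chr3:130730308-130730367, minus strand: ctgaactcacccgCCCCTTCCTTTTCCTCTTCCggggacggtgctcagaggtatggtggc
Rpl27a, chr7:109519165-109519224, plus strand: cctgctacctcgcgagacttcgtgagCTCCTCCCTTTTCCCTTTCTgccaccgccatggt
Rpl35, chr2:39005102-39005161, minus strand: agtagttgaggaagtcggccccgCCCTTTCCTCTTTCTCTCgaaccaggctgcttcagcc
Rpl15, chr14:18270957-18271016, minus strand: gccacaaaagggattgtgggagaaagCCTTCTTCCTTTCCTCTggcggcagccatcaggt
Rps6, chr4:86857338-86857397, minus strand: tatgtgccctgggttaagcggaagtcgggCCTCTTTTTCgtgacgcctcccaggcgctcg
Rpl13, chr8:123102320-123102379, plus strand: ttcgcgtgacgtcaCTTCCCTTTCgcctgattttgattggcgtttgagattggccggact
The runs are 21 bases long in Rpl7a, 20 in Rpl34 and Rpl27a, 18 in Rpl35, 17 in Rpl15 and 10 in Rps6 and Rpl13. In Rpl13 the whole run lies before the RefSeq start, so by that start it is no part of the message, and in the other 6 it reaches across the start.

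Promoters of 64 of the 85 members were found by symbol in the RefSeq table (75 promoters, since some genes have several). A run of at least 8 pyrimidines within the stretch from 25 bases before to 50 bases after the start stood in 66.7% of the 75 promoters, against 27.2% of all 32851 promoters and 25% of the promoters of the genes tested here. The letters CTCTTT on the gene's strand in the same stretch stood in 26.7% against 2.81% and 2.35%. Over the whole window of 250 bases before to 50 after the start and on both strands, CCGGAAG, the core bound by ETS factors, stood in 36% against 8.86% and 16.6%, and AAGATGG, which lies within the YY1 motif and can also overlap a start codon, stood in 14.7% against 6.34% and 6.77%. GGGCGG, the core of the Sp1 motif, stood in 61.3%, which is near the 61.9% of the promoters of genes tested, and TATAAA stood in 9.33% against 7.33%. These are matches of letters and not measured sites.

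The members lie on 19 chromosomes (GRCm38, GENCODE M21). Their transcripts are short, with a median of 878 bases and a range of 374 to 5179. Small nucleolar RNA genes, whose products guide the modification of ribosomal RNA and which are often carried in introns of ribosomal protein genes, lie within 30 of the 85 members, against 1.78% of the 13584 genes tested that have an annotation. Rpl4 carries 5 of them.

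Ribosomal protein mRNAs were abundant in every library. The mean level over the 8 libraries had a median of 388 CPM across the members, against 24.2 CPM across all genes tested, and 76 of the 85 were at 100 CPM or more. Their order was nearly the same everywhere, with a Spearman correlation between libraries of 0.983 to 0.996 over the 28 pairs of libraries (across genes, which are not independent). The spread of the log2 level over the 8 libraries had a median SD of 0.13 for the 76 members at 100 CPM or more and of 0.20 for the 2037 other genes at that level. In 78 of the 85 members the highest of the 8 libraries was less than 1.5 times the lowest.

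Compared per kilobase of transcript, the median level was 484 CPM per kb. The highest was Rplp1 at 1971 CPM per kb, a protein of the stalk that recruits elongation factors. It was followed by Rpl41, the smallest protein of the ribosome, at 1405 CPM per kb. Rpl13a and Rplp0, at 1083 and 1070 CPM per kb, differed by less than the spread over the libraries, and Rps18 followed at 963. With the longest transcript in place of the one used, Rps18 was at 469 CPM per kb and held rank 30 instead of 5, while the order of the first 4 was as given here. The other stalk members were lower, with Rplp2 at 362 and Rpl12, which anchors the stalk, at 41.5 CPM per kb.

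The lowest levels per kilobase were those of Rpl39l at 1.28, Rps4l at 11.3, Rpl5 at 15.9, Rps19bp1 at 21.4 and Rpl12 at 41.5 CPM per kb. Rpl39l, a paralog known from the testis, was at 0.35, 1.61, 0.296 and 1.97 CPM in the WT cultures (static animal 1, static animal 2, stretched animal 1, stretched animal 2) and at 0.907, 1.34, 0.776 and 0.985 CPM in the CAV1-/- cultures. It was above the floor in every library and followed the animal more than the stretch in WT. Rps4l, a retrocopy related to Rps4x, was at 4.41, 13.6, 3.94 and 17.1 CPM in WT and 9.64, 11.8, 11.6 and 13.4 CPM in CAV1-/- cultures, again with the cultures of 1 animal closer to each other in WT.

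Rpl5 and Rpl12 are standard members, and their low values have a counterpart elsewhere in the table. Reads of 61 bases were assigned to transcripts by an estimate, and 82 of the 85 members share at least 1 stretch of 61 bases with another annotated gene. For 39 of them at least 50% of all such stretches are shared. In the table, 43 other genes hold 20% or more of the 61-base stretches of a member, 30 of them annotated as pseudogenes and 11 as protein coding, and 40 members are affected. Rpl5 was at a mean of 32.5 CPM, while it reached 818 CPM together with Gm15500 and Fam69a, so only 3.97% of the combined level is listed under Rpl5. Rpl12 held 6.86% of 751 CPM, shared with Gm10275. Rpl27a held 11.3% of 494 CPM, Rpl27 25% of 328 CPM, Rpl37rt 29.6% of 272 CPM, Rps23 35.3% of 331 CPM, Rpl31 40.2% of 452 CPM, Rps12 40.5% of 563 CPM and Rpl10 41.9% of 670 CPM. These 9 members held less than 50% of the combined level. Their single-gene values are therefore uncertain, and combined values stand beside them below where a difference is named.

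**Figure D1:**
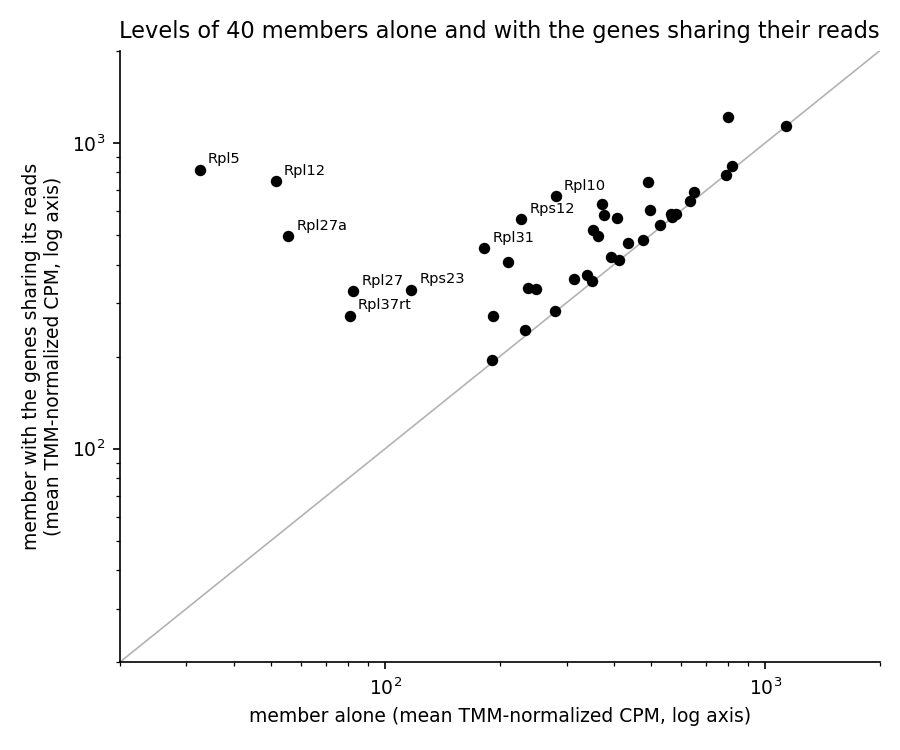
Mean level over the 8 libraries of the 40 members that share 20% or more of their 61-base stretches with another gene in the table. The x axis gives the member alone and the y axis the member summed with those genes, both in TMM-normalized CPM on log axes, and the line marks equal values. The 9 labelled members hold less than 50% of the combined level, with Rpl5, Rpl12 and Rpl27a farthest above the line.

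Summed over the 85 genes, ribosomal protein mRNA made up 3.11% to 4.03% of all CPM. The sum was 34491 and 34316 CPM in the 2 static WT cultures and 35901 and 33456 CPM in the stretched ones. The static CAV1-/- cultures were at 36844 and 40504 CPM and the stretched ones at 31990 and 37018 CPM. Both static CAV1-/- cultures lay above all 4 WT cultures, and in both CAV1-/- animals the stretched culture lay below its static partner. The log2 difference of the sum, stretched minus static, was 0.06 for WT animal 1, -0.04 for WT animal 2, -0.20 for CAV1-/- animal 1 and -0.13 for CAV1-/- animal 2. The subunits had similar values: the large subunit gave 0.06, -0.04, -0.19 and -0.13 and the small subunit 0.05, -0.03, -0.22 and -0.12 in the same order of animals. In bulk RNA, fewer cells of a type and less RNA per cell cannot be told apart, and CPM gives the share of the library and not the amount per cell.

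**Figure D2:**
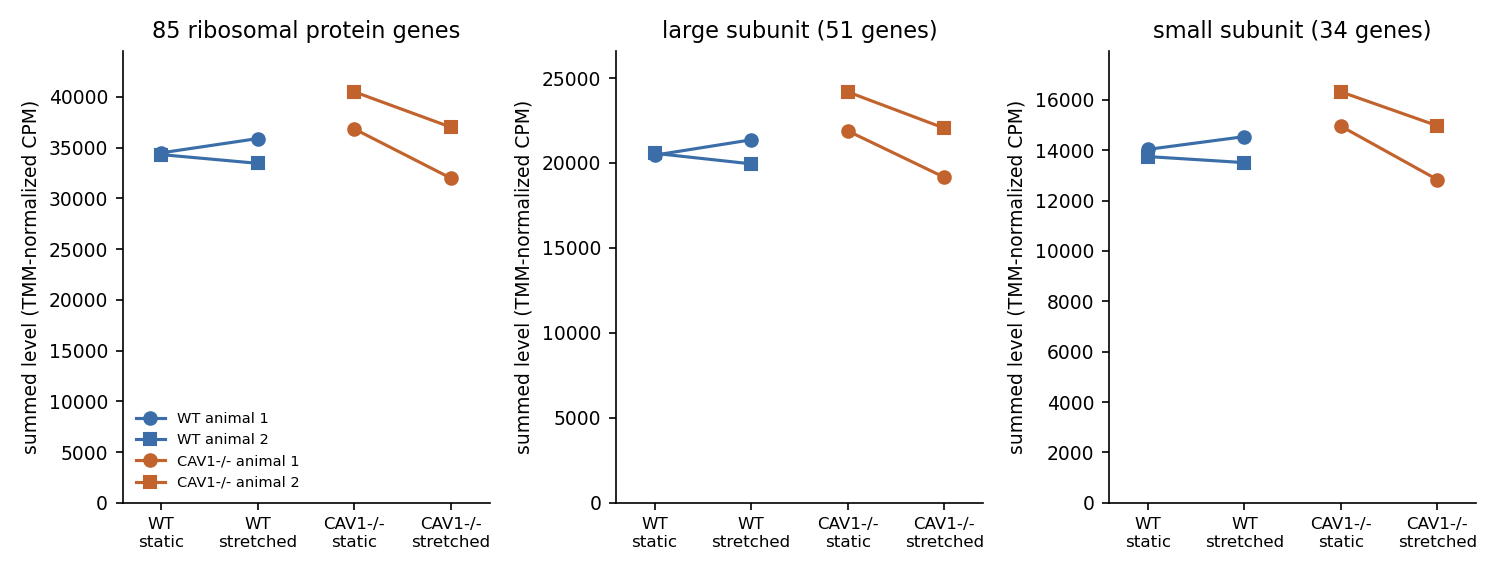
Summed level of the 85 ribosomal protein genes and of the large and small subunit genes in each of the 8 libraries, in TMM-normalized CPM on axes that start at 0. Each line joins the static and the stretched culture of 1 animal. The lines of both CAV1-/- animals slope down, from 36844 to 31990 and from 40504 to 37018 CPM for all 85 genes, and those of the WT animals go opposite ways by less.

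No member passed the threshold of an adjusted p of 0.05 in any of the 6 comparisons, by limma without or with a block (the animal for stretch, the replicate number between genotypes), by edgeR's quasi-likelihood test or by DESeq2. What follows are therefore sizes and directions with their intervals. The 85 genes were measured in the same 8 libraries and are not independent of each other, so counts over them describe these libraries. Most members had narrow limits: the 95% interval of the log2 difference stayed within a 2-fold change either way for 80 to 84 of the 85 members, depending on the comparison.

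In WT MCs, stretch left the group near its static level. The median log2 difference was 0.03 over the members and -0.02 over all genes tested, with 55 members higher and 30 lower. Cultures did not overlap in 15 members that were higher (13.9% of all genes tested) and in 16 that were lower (17.2%), which is near the background. None was called at an adjusted p under 0.05, as was 0% of all genes (0 of 13665), and 0 members by limma (2.27% of all genes), 0 by quasi-likelihood (2.23%) and 1 by DESeq2 (2.16%) had an unadjusted p under 0.05. Rps15a, a small subunit protein, had the highest difference among those without overlap at 0.18 (SE 0.17), from 238 and 230 CPM static to 288 and 244 CPM stretched. Rps24 and Rpl22l1 followed at 0.18 and 0.16. The lowest were Rpl27 at -0.25 (SE 0.21), Rpl13 at -0.24 (SE 0.12) and Rpl12 at -0.24 (SE 0.13). With the genes that share their reads added, these were -0.06 for Rpl27, -0.19 for Rpl13 and -0.03 for Rpl12.

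In CAV1-/- MCs, most members were lower in stretched than in static cultures. The median log2 difference was -0.16 against 0 over all genes, 76 members were lower and 9 higher, and 33 were lower without overlap (11.9% of all genes tested) against 3 that were higher without overlap (12.4%). The animals gave the same direction: the members' median was -0.21 in the first and -0.12 in the second, and 68 of the 85 members were lower in both, against 30.9% of all genes tested. The adjusted p by limma was 1 for every member, and 0% of all genes were called. An unadjusted p under 0.05 was reached by 2 members with limma (2.09% of all genes), 22 with the animal as a block (13.3%), 1 with quasi-likelihood (2.16%) and 8 with DESeq2 (2.11%), and the smallest adjusted p with the block was 0.188. Without both cultures of the first CAV1-/- animal, which carry most of the leukocyte marker level, the median was -0.12 and 70 members were lower (50.8% of all genes). Leaving out its stretched culture alone gave -0.04, and leaving out that of the second animal gave -0.26. The part of the marker levels in these differences was not tested.

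Rpl18, a large subunit protein, had the lowest difference in stretched CAV1-/- cultures among members without overlap. It was at 607 and 674 CPM in the static cultures and at 480 and 517 CPM in the stretched ones, a log2 difference of -0.36 (SE 0.12, 95% interval -0.66 to -0.06, adjusted p = 1 by limma). In WT it was at 535 and 581 CPM static and 520 and 523 CPM stretched. The gene lies at chr7:45715457-45720836. Rpsa, a small subunit protein that is also known as a laminin receptor, was at 858 and 975 CPM static and 681 and 801 CPM stretched, a log2 difference of -0.31 (SE 0.15), and its difference together with Rpsa-ps10 was -0.34 and -0.28 in the 2 animals. Rpl10, which completes the subunit joining face late in assembly, gave -0.33 (SE 0.26), and -0.15 with Rpl10-ps3 added. At the other end stood Rpl27a at 0.12 (SE 0.20), Rpl13 at 0.10 (SE 0.12) and Rpl36al at 0.05 (SE 0.14). With the genes sharing their reads added, Rpl27a was at -0.08 and Rpl13 at -0.03, opposite in sign to the values alone.

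Between the genotypes without stretch, the members were higher in CAV1-/- MCs. The median log2 difference was 0.17 against -0.01 over all genes, with 76 members higher and 9 lower. In 58 members both CAV1-/- cultures lay above both WT cultures (16.1% of all genes tested), and in 2 both lay below (20.8%). The calls were 0 of 85 members at an adjusted p under 0.05 and 0.0732% of all genes (10 genes), and the members' smallest adjusted p by limma was 0.703. Against the mean of the static WT cultures, the members' median was 0.12 in the first and 0.22 in the second CAV1-/- animal. The static culture of the second animal lay above both WT cultures in 74 members (34.2% of all genes). The part of the leukocyte marker levels in this difference was not tested. Rps15a (263 and 331 CPM against 238 and 230) gave 0.33 (SE 0.17, adjusted p = 0.723 by limma). Rps20, which binds the head of the small subunit, was at 436 and 540 CPM against 380 and 398, a log2 difference of 0.32 (SE 0.18). Rpl7 was at 627 and 735 CPM against 550 and 553, a difference of 0.30 (SE 0.17). Rpl13 and Rps2 were the 2 that lay lower, at -0.12 (SE 0.12) and -0.08 (SE 0.13), and Rpl13 was at 0 (SE 0.12) with Gm12918 added.

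With stretch, the median difference between the genotypes was close to that of all genes. It was -0.01 against 0 over all genes, with 39 members higher and 46 lower in CAV1-/- MCs. Cultures did not overlap in 4 members that were higher (14.6% of all genes tested) and 5 that were lower (15.9%), fewer than in the background. No member was called, against 0.0585% of all genes (8 genes). Against the mean of the static WT cultures, the stretched CAV1-/- cultures had a median of -0.08 and 0.12 and the stretched WT cultures 0.07 and -0.02, so that the groups overlapped. Leaving out the first CAV1-/- animal gave a median of 0.09.

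**Figure D3:**
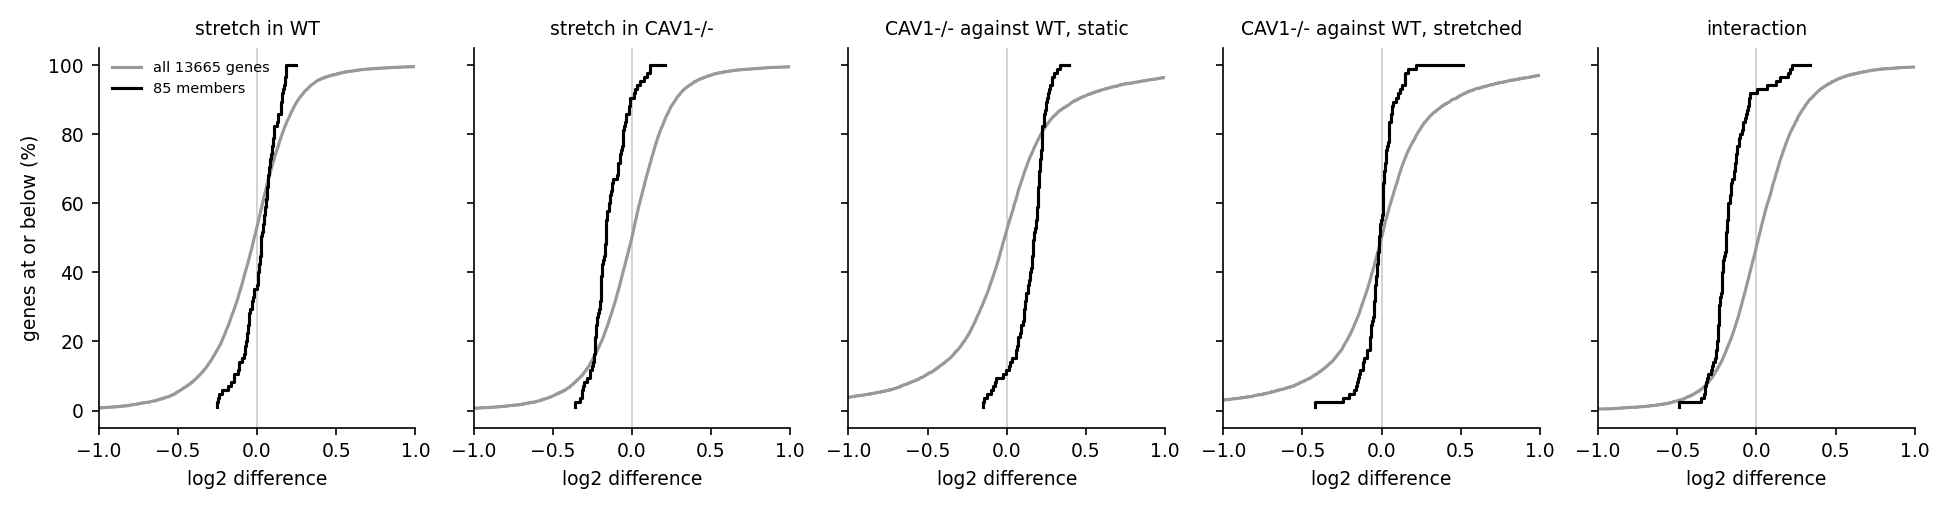
Cumulative share of genes, in percent, at or below each log2 difference for the 85 members (black) and all 13665 genes tested (grey), in the 4 comparisons between groups and in the interaction. The black curve is shifted to the left for stretch in CAV1-/- MCs (median -0.16) and for the interaction (median -0.19), to the right for CAV1-/- against WT static (median 0.17), and lies near 0 in the other 2 panels.

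The interaction, the stretch difference in CAV1-/- MCs minus that in WT MCs, was negative for 77 of the 85 members and positive for 8, with a median of -0.19 against 0.01 over all genes. In 65 members both CAV1-/- animals gave a lower stretch difference than both WT animals (16.3% of all genes tested), and in 4 a higher one (18.1%). In 26 members both WT animals were higher and both CAV1-/- animals lower on stretch, a pattern seen in 4.11% of all genes tested, and 2 members had the opposite pattern, against 4.87%. No member and 0% of all genes were called, the adjusted p by limma was 1 for every member, and with the animal as a block 7 members had an unadjusted p under 0.05 (4.25% of all genes) and the smallest adjusted p was 0.947. Without the first CAV1-/- animal the median was -0.15, and 68 members in the second animal lay below both WT animals (31.4% of all genes). Leaving out single cultures moved the median between -0.29, without the stretched culture of the second CAV1-/- animal, and -0.08, without the stretched culture of the first CAV1-/- animal. This comparison shares its libraries with the ones above and is not separate evidence for them.

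Rps6, which codes for a substrate of the S6 kinases, was at 472 and 414 CPM static and 546 and 459 CPM stretched in WT. In CAV1-/- MCs it was at 546 and 531 CPM static and 441 and 522 CPM stretched. These are mRNA levels, and mTORC1 activity was not measured. The interaction of Rps6 was -0.35 (SE 0.22, 95% interval -0.88 to 0.19). Rps6 shares 84.4% of its 61-base stretches with Rps6-ps4, and with that gene added the interaction was -0.26 (SE 0.21). The stretch differences were 0.21 and 0.15 for the WT animals alone and 0.05 and 0.04 combined. For the CAV1-/- animals they were -0.31 and -0.02 alone and -0.32 and -0.12 combined. Rps20 gave an interaction of -0.33 (SE 0.25), with stretch differences of 0.19 and 0.08 for the WT animals and -0.25 and -0.14 for the CAV1-/- animals. Rpl5, which carries 5S ribosomal RNA into the large subunit together with Rpl11, had the lowest interaction at -0.49 (SE 0.28), and -0.22 (SE 0.22) when combined with the genes sharing its reads.

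Averaged over both genotypes, stretched minus static, the members' median was -0.06 with 24 higher and 61 lower, 0% of all genes were called, and the interval stayed within 2-fold for 84 members. Rpl27 (-0.28, SE 0.15), Rpl36 (-0.24, SE 0.10) and Rpl18 (-0.23, SE 0.09) were lower in all 4 animals, and Rpl36al and Rps27rt, at 0.11 each, were higher in all 4. Rpl27 was at 84.5, 105, 76.3 and 81.6 CPM in WT and at 73.1, 99.4, 59.4 and 78.5 CPM in CAV1-/- cultures (static animals 1 and 2, then stretched animals 1 and 2). Its adjusted p was 0.985 by limma and 0.0888 with the animal as a block. Rpl27 holds 25% of its combined level, and with Rpl27-ps3 added its average difference was -0.17 (SE 0.09, adjusted p = 0.989 by limma). Rpl36 was at 202, 203, 161 and 187 CPM in WT and at 205, 217, 158 and 194 CPM in CAV1-/- cultures, so that each stretched culture lay below every static one.

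**Figure D4:**
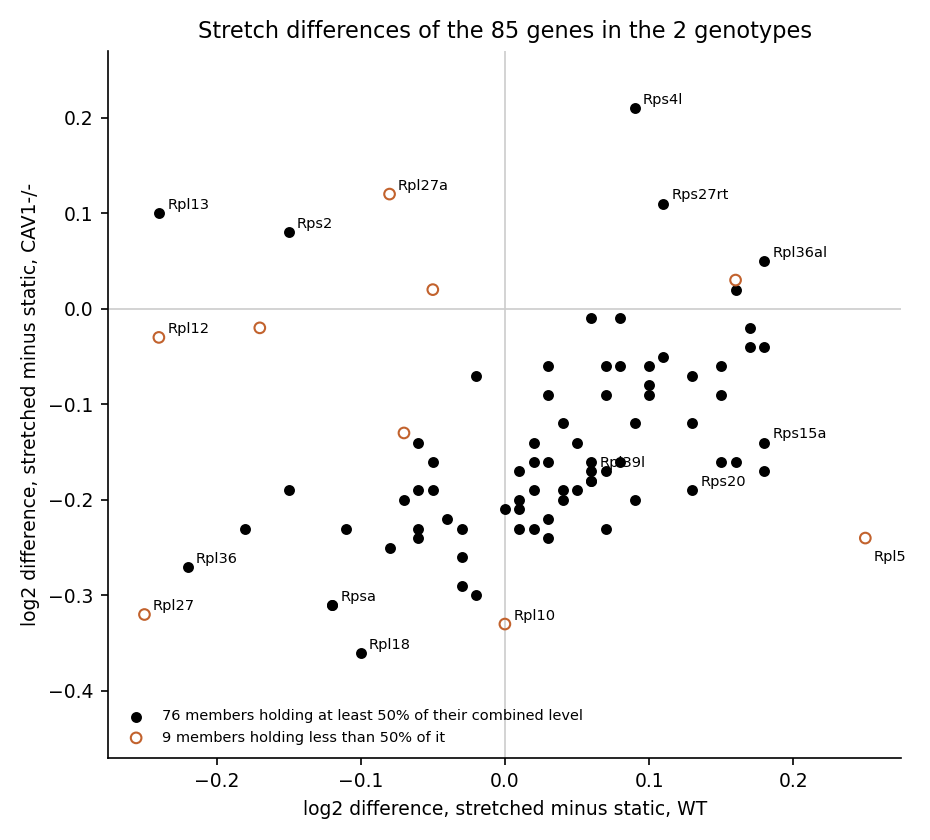
Log2 difference, stretched minus static, of each of the 85 members in WT (x axis) and in CAV1-/- MCs (y axis), which come from different animals. Open circles are the 9 members with less than 50% of their combined level listed under their own name. Most members lie below 0 on the y axis and on both sides of 0 on the x axis, and Rpl13 and Rps2 lie at the upper left.

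Rpl13 and Rps2 had the signs opposite to most other members. Rpl13, a large subunit protein (chr8:123102350-123105244), was at 622 and 582 CPM static and 515 and 504 CPM stretched in WT, and at 541 and 564 CPM static and 574 and 610 CPM stretched in CAV1-/- MCs. Stretched cultures lay below static ones in WT and above them in CAV1-/- MCs, with an interaction of 0.34 (SE 0.16, 95% interval -0.06 to 0.74, adjusted p = 1 by limma). Rpl13 shares 80% of its 61-base stretches with Gm12918, which was at a mean of 20.4 CPM, and with that gene added the stretch differences were -0.18 and -0.21 in WT and -0.09 and 0.02 in CAV1-/- animals, with an interaction of 0.16 (SE 0.18). Rps2, which lies at the entry of the mRNA channel (chr17:24718116-24721929), was at 585 and 595 CPM static and 565 and 503 CPM stretched in WT, and at 545 and 574 CPM static and 559 and 621 CPM stretched in CAV1-/- MCs, an interaction of 0.22 (SE 0.18). Rps2 held 99.3% of its combined level, and adding Rps2-ps10 left its interaction at 0.22.

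Summing members with the genes that share their reads brought the outlying members toward the rest. Over the 40 members concerned, the SD of the stretch difference across genes was 0.17, 0.15, 0.14 and 0.13 in the 4 animals (WT 1, WT 2, CAV1-/- 1, CAV1-/- 2) for the members alone and 0.12, 0.08, 0.10 and 0.08 for the combined values. Of the 9 members below 50%, 5 and 7 were lower on stretch in the CAV1-/- animals when taken alone, and all 9 were lower in both when combined. Rpl37 and Rpl37rt share reads with each other, so their combined values are the same sum, with 70.4% of it under Rpl37. That sum enters the 40 and the 85 members under both names, and it stands for Rpl37rt among the 9. Rpl10 alone gave 0.50, -0.49, -0.12 and -0.54 in the 4 animals, and 0.11, -0.01, -0.20 and -0.10 together with Rpl10-ps3. Rpl12 alone gave -0.17, -0.32, 0.04 and -0.11 and combined 0.07, -0.14, -0.26 and -0.31, and its interaction was 0.21 alone and -0.25 (SE 0.21) combined. Rps23 was an exception in WT animal 1, where it was at -0.05 alone and 0.43 with Rps23-ps1. Over all 85 members combined in this way, 81 had a negative interaction and 4 a positive one, and 80 were higher in static CAV1-/- than in static WT MCs. The medians were -0.20 for the interaction and 0.19 for that genotype comparison, and again no member was called. This alternative was chosen after the single-gene values were seen.

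**Figure D5:**
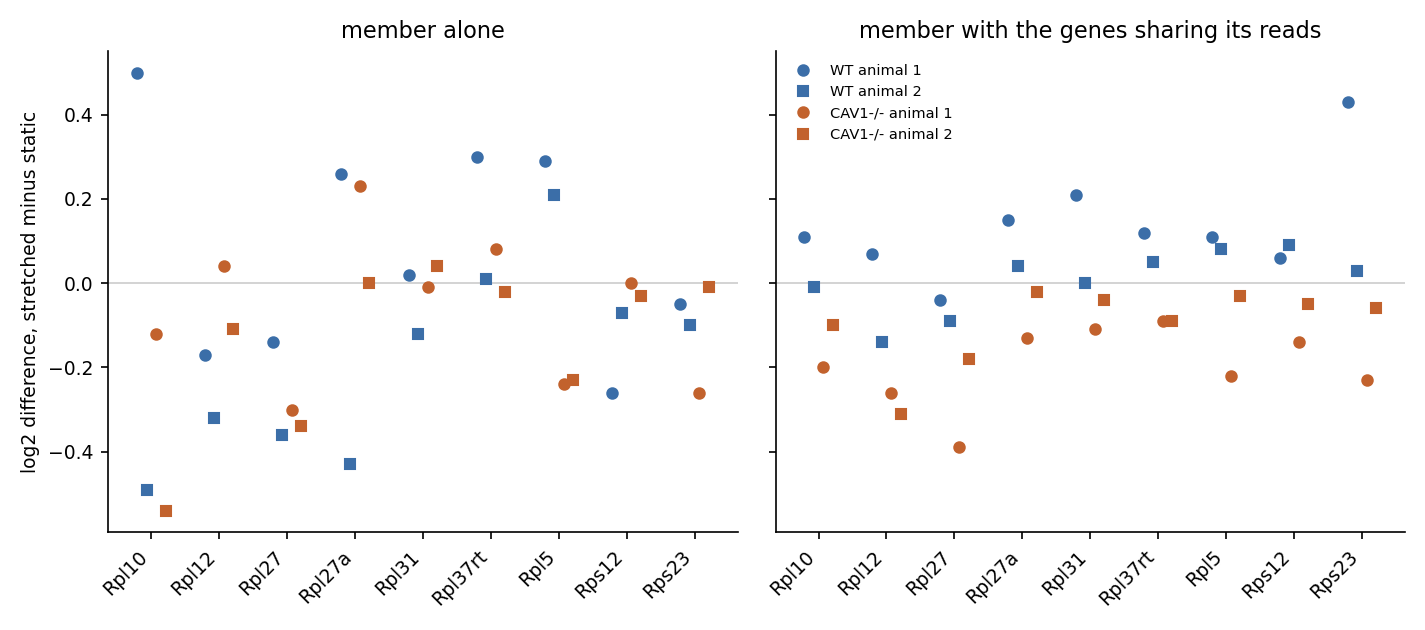
Log2 difference, stretched minus static, in each of the 4 animals for the 9 members with less than 50% of the combined level under their own name, alone (left) and summed with the genes that share their reads (right). Circles and squares are the first and second animal of a genotype. On the right all values of the CAV1-/- animals lie below 0, and the values of Rpl10 that reached 0.50 and -0.54 on the left lie between -0.20 and 0.11.

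By place in the ribosome, every group listed had a negative median stretch difference in CAV1-/- MCs. The proteins that line the exit tunnel (Rpl4, Rpl17 and Rpl39) had a median stretch difference of 0.01 in WT and -0.17 in CAV1-/- MCs, with 3 of 3 lower in the latter. The 6 proteins around the tunnel exit (Rpl19, Rpl22, Rpl23a, Rpl26, Rpl31 and Rpl35) had 0.09 and -0.09. The 4 stalk proteins had 0.02 and -0.14, and the 7 proteins of the mRNA channel and decoding site -0.05 and -0.13. Rpl4 was at 1137 and 1073 CPM static and 1095 and 1048 CPM stretched in WT, and at 1224 and 1286 CPM static and 1004 and 1155 CPM stretched in CAV1-/- MCs. Outside the symbol rule, Fau had a stretch difference of -0.12 in WT and -0.11 in CAV1-/- MCs, and Gnb2l1 had -0.04 and -0.25.

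On stretch in CAV1-/- MCs the list of paralogs had a median closer to 0 than the list of partners. The 8 measured of 12 paralogs listed, Rps19bp1 among them, had a median of -0.02, with 4 higher and 4 lower. The 8 measured partners had -0.17 with all 8 lower. The lists are not matched. Rpl3, Rpl10 and Rpl26 partner paralogs that were not measured, and Rps27l, Rps27rt and Rps19bp1 have no partner among the 8. Pair by pair, Rpl7l1 lay closer to 0 than Rpl7 (-0.07 against -0.20) and Rpl22l1 farther than Rpl22 (-0.16 against -0.06). Rpl39l and Rpl39 were at -0.17 and -0.16, Rps4l and Rps4x at 0.21 and -0.18, and Rpl36al and Rpl36a at 0.05 and -0.04. Rpl39l (mean 1.03 CPM, SE 0.50) and Rps4l (mean 10.7 CPM, SE 0.70) had wide intervals, so their values do not tell paralog from partner. In WT the medians were 0.13 for the paralogs and 0.11 for the partners. Rpl36al was at 200 and 190 CPM static and 202 and 203 CPM stretched in CAV1-/- MCs, beside 258 and 253 CPM and 231 and 266 CPM for Rpl36a. Rps27l, a paralog induced by p53 in other systems, was at 111 and 154 CPM static and 106 and 141 CPM stretched. Rpl22l1 was at 66.3 and 81.1 CPM static and 55.6 and 77.2 CPM stretched, beside 246 and 268 CPM and 224 and 271 CPM for Rpl22. The difference between paralogs and partners was not tested.

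Ribosomal protein messages are used as reference genes for quantitative PCR, and the study's text names L32 and L34 in that role. Its quantitative PCR panels were of human mesothelial cells. The values below are from mouse MCs and do not test that normalization. Rpl34 was at 272 and 258 CPM static and 291 and 289 CPM stretched in WT, and at 282 and 335 CPM static and 260 and 331 CPM stretched in CAV1-/- MCs. The log2 difference was 0.21 (SE 0.16, 95% interval -0.17 to 0.60) between genotypes without stretch and -0.07 (SE 0.16, 95% interval -0.45 to 0.32) for stretch in CAV1-/- MCs. Rpl32 gave 0.18 (SE 0.13, 95% interval -0.15 to 0.50) and -0.18 (SE 0.13, 95% interval -0.51 to 0.14) in the same comparisons, from 497 and 454 CPM in static WT, 526 and 549 CPM in static and 459 and 487 CPM in stretched CAV1-/- MCs. All 5 reference genes listed (Rpl34, Rplp0, Rpl13a, Rps18 and Rpl19) lay higher in static CAV1-/- than in static WT MCs, by 0.16 to 0.24, and lower on stretch in CAV1-/- MCs, by -0.06 to -0.21, and none was called. Rplp0, the member with the highest mean level at 1453 CPM, was at 1320 and 1481 CPM static and 1490 and 1333 CPM stretched in WT, and at 1419 and 1798 CPM static and 1257 and 1529 CPM stretched in CAV1-/- MCs.

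Other messages of the translation machinery were read from lists. The 16 translation factors and related genes with TOP messages had 15 lower and 1 higher on stretch in CAV1-/- MCs with a median of -0.10, and 13 higher and 3 lower in static CAV1-/- against WT MCs with a median of 0.15. The exception on stretch was Tpt1 at 0.29 (SE 0.17), and Eef1a1, the elongation factor that brings transfer RNA to the ribosome and named here for its abundance after its values were seen, was at 7450 and 7529 CPM static and 6707 and 7276 CPM stretched in CAV1-/- MCs. The 24 ribosome biogenesis factors had a median of -0.06 on stretch in CAV1-/- MCs and 0.05 between static genotypes. The 14 genes of the RNA polymerase I machinery, which makes ribosomal RNA, had medians of -0.02 and -0.01. None of these genes was called in any of the 6 comparisons.

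Regulators of mTORC1 and of TOP messages, 16 genes, differed in direction between the comparisons. The list mixes parts of mTORC1, such as Mtor, with inhibitors, such as Ddit4, so its counts and medians give no direction for the pathway. On stretch in WT 7 were higher and 9 lower with a median of -0.07, and between static genotypes 7 were higher in CAV1-/- MCs and 9 lower with a median of -0.06. On stretch in CAV1-/- MCs 12 were higher and 4 lower with a median of 0.13, the interaction was positive for 14 with a median of 0.18, and none was called. Ddit4, an inhibitor of mTORC1 induced by stress, had the highest stretch difference in CAV1-/- MCs at 0.50 (SE 0.18, adjusted p = 1 by limma and 0.247 with the animal as a block), and 0.28 in WT. Mtor itself had the highest interaction at 0.38 (SE 0.17), from a stretch difference of -0.42 in WT and -0.04 in CAV1-/- MCs. The 8 genes of the MYC family and partners had a median of 0.04 and the 10 p53 targets of -0.10 on stretch in CAV1-/- MCs. Mycl was higher in static CAV1-/- MCs by 1.70 (SE 0.21, adjusted p = 0.0726 by limma), and Mycn gave -1.12 (SE 0.69, adjusted p = 0.991 and 0.0291 with the animal as a block) for stretch averaged over the genotypes.

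Mitochondrial ribosomal proteins, made from 78 other nuclear genes, had the members' direction at a smaller size in both CAV1-/- animals and in the interaction. In WT their values were not smaller. Per animal, their median stretch difference was 0.08 and 0.03 for WT and -0.06 and -0.09 for CAV1-/-, with 62 of 78 negative in the interaction and a median of -0.12. The 942 other genes tested with transcripts of at most 1000 bases had medians of 0.04, 0.00, -0.09 and -0.05 in the same animals. Short transcripts as a class thus had the same direction in both CAV1-/- animals at a smaller size than the ribosomal protein messages, with their 0.07, -0.01, -0.21 and -0.12. The part of transcript length in the members' difference was not tested.

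Within the 85 genes, members with and without the sequence features had similar medians, and the differences between them were not tested. A run of at least 8 pyrimidines between 25 bases before and 50 bases after the start was found for 48 members. Such a run need not reach across the start, so this is no split by TOP tract. The median stretch differences of these 48 were 0.05, -0.01, -0.17 and -0.10 in the 4 animals. The 16 with a promoter entry and without the run had 0.10, 0.01, -0.19 and -0.12. The 30 hosts of small nucleolar RNA genes had 0.07, -0.02, -0.21 and -0.11, and the other 55 had 0.07, 0.01, -0.21 and -0.13. Across the 85 genes, which share the libraries, the correlation of the stretch difference with GC content was -0.44, -0.24, -0.02 and -0.06 in the 4 animals, and with the log2 mean level 0.02, -0.25, -0.43 and -0.18.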

How the data were processed

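RNAseq was measured in 8 libraries of MCs. Reads were trimmed by the authors (Cutadapt) and assigned to GRCm38 transcripts by RSEM. The deposited signal is the authors' TMM-normalized CPM for 13687 genes. In each library the values are whole multiples of the value of 1 read (100% within 0.01 read), which gave the reads recovered for count tests. RSEM divides reads of near-identical genes by an estimate, which affects many members.

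After adding a pseudocount of 1, log2 values of the 13665 genes with at least 1 CPM in at least 2 libraries (22 removed) were fitted in R 4.3.3 by limma 3.58.1, with 1 mean per group, eBayes with trend, no block and Benjamini-Hochberg adjustment over all genes, at a threshold of 0.05. The fit has 4 residual degrees of freedom. An exact permutation test of 2 against 2 cultures cannot go below p = 0.333, so none was run. Intervals are limma's 95% intervals. Samples were grouped by the labels' genotype and condition. The p-values measure the spread between cultures of 2 animals a group.

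The labels give the animal of each culture, so static and stretched cultures are paired by animal: their deviations from the group means correlated at 0.703 in WT and 0.85 in CAV1-/- animals over all genes. Cultures with the same number in different genotypes come from different animals (0.522 static, 0.484 stretched). Alternatives were pseudocounts of 0.1 and 5, no filter, a mean of at least 5, median-of-ratios scaling, quantile normalization, eBayes without trend, a block (the animal for stretch, the replicate number between genotypes), only the 4 libraries compared, edgeR's quasi-likelihood test (edgeR 4.0.16), DESeq2 1.42.0 and each culture left out. Members summed with genes sharing their reads, and the fit without the first CAV1-/- animal, were added after the data were seen.

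The fits were tested on simulated data. Stretches of 61 bases, the read length, were compared over all GENCODE M21 transcripts. RefSeq (GRCm38.p6) gave promoters. Members and lists were chosen with earlier results of these data known. In each comparison the 3 highest and 3 lowest members without overlap between groups were named, together with the 5 highest and 5 lowest per kilobase, the members of the structural, paralog and reference lists, at most 2 genes of each other list by size and genes past the threshold. Rpl32 was named from the study's text, and Rpl7a, Rpl15 and other members of the start site windows were chosen for their sequences. Protein sequences were not used here.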

Additional observations from a re-analysis of the deposited data

Results flagged for a closer look

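Some named members went 1 way on stretch in both WT animals and the opposite way in both CAV1-/- animals. The interaction log2 difference was -0.49 for Rpl5, -0.35 for Rps6, -0.33 for Rps20, -0.32 for Rps15a, -0.32 for Rpl22l1, -0.29 for Rpl7 and -0.20 for Rpl34, all higher in WT and lower in CAV1-/- animals upon stretch. It was 0.34 for Rpl13 and 0.22 for Rps2, which were lower in WT and higher in CAV1-/- animals. The adjusted p of the interaction was 1 by limma for all 9 genes, so the opposite signs are not shown to differ beyond the spread between cultures. With genes sharing its reads added, Rpl13 no longer had opposite signs in the 2 genotypes. Combined in the same way, the interaction was -0.26 for Rps6 and -0.22 for Rpl5. Groups of 2 cultures are too small for a check of single outlying samples.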

How the results depend on the processing

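No member was called in any of the 6 comparisons under any alternative run. With the replicate block the number of members called was 0 in each, and the smallest adjusted p by limma was 0.0888. The medians were 0.03, -0.16, 0.17, -0.01, -0.19 and -0.06, which a block cannot change in this balanced design. Blocking by the replicate number, which links different animals and is no pairing, gave Mycl an adjusted p of 0.0251 between static genotypes (limma). Of 107 alternative medians, 102 moved by less than the spread between replicates. The members' median ranged, with single cultures left out, from -0.26 to -0.04 for stretch in CAV1-/- MCs, from -0.29 to -0.08 for the interaction, from 0.12 to 0.22 between static genotypes, from -0.13 to 0.09 between stretched genotypes and from -0.02 to 0.07 for stretch in WT, so that the last pair changed sign. Quantile normalization gave 0.12 between static genotypes. The median level per kilobase was 378 with the longest transcript. Of the 34 named values, 5 changed sign, all with members summed with the genes sharing their reads: Rpl27a (-0.08) and Rpl13 (-0.03) for stretch in CAV1-/- MCs, Rps23 (-0.05) and Rpl12 (-0.00154) between stretched genotypes and Rpl12 (-0.25) in the interaction. With 2 cultures per group, differences of the size of the members' medians could not be called for single genes.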
